A study of Homo sapiens with 18 samples.

Results

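The genes described here are 36 genes of pigment and the melanosome, the organelle in which melanocytes make and store melanin. They were chosen by name and not by a filter on their values, but with earlier results of these data known. The list holds 4 genes of melanin synthesis and its copper supply, 4 melanosome structural and membrane proteins, 5 ion transporters and receptors and 6 transport and Rab proteins. It also holds 7 subunits of the sorting complex BLOC-1, 7 further sorting genes and 3 other genes of the pigment lineage. The count table holds 58051 genes, and all 36 were matched to 1 Ensembl gene ID each and passed the filter on low counts in both cell lines.

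The libraries come from SKMEL2 and SKMEL30, established melanoma cell lines with variants at codon 61 of NRAS. Each line carries the lentiviral tet-ON vector pTRIPZ-PPP2R3B, in which doxycycline switches on PPP2R3B, the gene of the regulatory subunit PR70 of the phosphatase PP2A. Each line was sequenced uninduced, after 6 hours and after 18 hours of doxycycline, with 3 libraries in each of the 6 groups, 18 libraries in all. The labels give the later time as 18 hours, the study's text gives another time, and the label is used here. Every group carries the vector. The cells of each line had been selected with puromycin, and each line has 1 uninduced group with no harvest time of its own. Cells given doxycycline without the vector are not among these libraries, so PPP2R3B and doxycycline cannot be told apart. The libraries of a group come from the same cell line, and their p-values measure the spread between these libraries, which may be technical.

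Melanin is made from tyrosine inside melanosomes, where tyrosinase carries out the first step and TYRP1 and DCT act on later intermediates. PMEL forms the fibrils on which the pigment is laid down, and ion transporters affect the pH inside the organelle, on which tyrosinase depends. The BLOC, HPS and AP-3 genes sort the enzymes from endosomes to the organelle. Rab27a, melanophilin and myosin Va carry the finished melanosome along actin, and MITF is the transcription factor of the pigment lineage that drives many of these genes through E-boxes.

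Totals ran from 13402645 to 22383470 counts per library. PPP2R3B had 17.1 to 24.3 counts per 1000000 counts of the library (CPM) in the 6 uninduced libraries and 343 to 616 CPM in the 12 induced ones. All 8 melanocytic lineage markers were above 1 CPM in every group, and their summed level was 4528 to 5280 CPM in SKMEL2 and 7882 to 8275 CPM in SKMEL30. The 5 keratinocyte markers summed to 22.7 to 39.2 CPM in SKMEL2, where 3 of them had a mean above 1 CPM in every group. In SKMEL30 they summed to at most 1.265 CPM uninduced, 68.8 CPM at 6 hours and 11.4 CPM at 18 hours. KRT1 was at 0 throughout, whereas KRT5 varied between libraries. Its lowest, median and highest levels were 0, 4.03 and 8.26 CPM in SKMEL2 and 0, 0.273 and 37.5 CPM in SKMEL30, the last in replicate 3 at 6 hours. In SKMEL2 the highest KRT5 level lay below the lowest sum, so that other markers of the 5 held the rest. The part of keratinocyte RNA in the members' values was not tested. The 5 fibroblast markers summed to at most 17.4 CPM in SKMEL2 and 74.1 CPM in SKMEL30. The 5 leukocyte markers summed to at most 70.6 CPM and 38.7 CPM, with CD3E at 0 in SKMEL30. In RNA from a whole culture, fewer cells that express a gene and less RNA per cell cannot be told apart.

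The promoters of 5 members are shown because their genes include the members with the largest differences between the lines, TRPM1, TYRP1 and BIRC7, and beside them TYR and DCT, the other enzymes of melanin synthesis. They are the 250 bases before a RefSeq transcription start on GRCh38.p14, read 5′ to 3′ on the gene's strand, with the hexamers CATGTG or CACGTG, or CACATG where CATGTG lies on the other strand, in capitals. These are the E-box letters that MITF is known to bind.
TYR, chr11:89177625-89177874, plus strand: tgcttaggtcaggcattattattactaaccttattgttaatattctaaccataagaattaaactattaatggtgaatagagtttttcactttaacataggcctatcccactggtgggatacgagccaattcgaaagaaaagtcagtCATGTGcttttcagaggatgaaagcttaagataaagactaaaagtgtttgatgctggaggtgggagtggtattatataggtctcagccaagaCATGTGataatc
TYRP1, chr9:12693135-12693384, plus strand: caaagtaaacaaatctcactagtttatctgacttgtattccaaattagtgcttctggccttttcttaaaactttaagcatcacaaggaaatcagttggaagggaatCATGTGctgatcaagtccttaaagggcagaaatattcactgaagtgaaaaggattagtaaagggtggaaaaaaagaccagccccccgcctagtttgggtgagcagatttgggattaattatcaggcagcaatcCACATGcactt
DCT, chr13:94479683-94479932, minus strand, before the inner of 2 starts: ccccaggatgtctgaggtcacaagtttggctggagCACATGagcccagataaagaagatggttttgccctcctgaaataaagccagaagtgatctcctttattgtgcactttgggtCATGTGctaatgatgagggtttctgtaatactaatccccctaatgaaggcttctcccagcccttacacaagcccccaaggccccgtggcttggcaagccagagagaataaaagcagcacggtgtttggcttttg
TRPM1, chr15:31101726-31101975, minus strand, before the inner of 2 starts: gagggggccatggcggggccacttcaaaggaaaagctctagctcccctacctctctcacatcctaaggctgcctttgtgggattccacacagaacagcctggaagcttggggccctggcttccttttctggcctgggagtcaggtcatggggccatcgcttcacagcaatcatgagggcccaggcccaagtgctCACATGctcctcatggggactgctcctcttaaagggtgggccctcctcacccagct
BIRC7, chr20:63235655-63235904, plus strand: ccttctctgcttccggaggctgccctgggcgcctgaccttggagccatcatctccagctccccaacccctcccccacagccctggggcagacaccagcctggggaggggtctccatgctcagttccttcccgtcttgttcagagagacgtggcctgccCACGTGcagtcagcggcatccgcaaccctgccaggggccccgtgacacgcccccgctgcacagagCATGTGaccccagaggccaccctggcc

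The TYR window held the hexamer 104 and 12 bases before the start and the TYRP1 window 144 and 11 bases before it. The DCT window held it at 215 and 134 bases and the TRPM1 window at 56 bases, and BIRC7 had CACGTG at 92 bases and CATGTG at 27 bases. The outer DCT start had neither hexamer in its window, and the outer TRPM1 start had one at 8 bases. RefSeq windows were matched for 30 of the 36 members, with 61 starts in all. AP3B1, BLOC1S4, HPS1, PMEL, RAB38 and SLC45A2 were not matched. Either hexamer, on either strand, lay in 21 of the 61 windows (34.4%), and in 15.2% of the 35116 windows of all genes. Counted by gene, 19 of 30 members (63.3%) had it in at least 1 window, against 18.2% of 27305 genes. A count by gene rises with the windows per gene. The members had 61 windows for 30 genes, and all genes had 35116 windows for 27305 genes. The median log2 difference between the lines, SKMEL30 minus SKMEL2, was 0.40 over the 19 members with the hexamer, which ran from -1.18 to 8.69, and 0.88 over the 11 without, which ran from -1.64 to 1.94. TRPM1, TYRP1, BIRC7 and OCA2, the members with the largest differences among the 30, were all among the 19. These values describe letters in a window and not bound sites.

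By position, 7 of the 36 members (19.4%) lay on chromosome 15, which holds 3.08% of protein-coding genes: OCA2, TRPM1, CAPN3, BLOC1S6, SLC24A5, MYO5A and RAB27A. On chromosome 12, BLOC1S1 and CD63 were 3.83 kb apart, and PMEL lay 224 kb beyond CD63. These neighbours did not share a direction between the lines, since BLOC1S1 was lower in SKMEL30 and CD63 and PMEL were higher there.

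The first question was how the lines differ before induction. Most members were higher in SKMEL30: 28 of 36 were higher, 7 were lower and only DCT did not pass the test (edgeR's quasi-likelihood test with Benjamini-Hochberg adjustment over all genes). The lines differ widely as a whole, and 75.9% of all 17133 genes passed the same test, 35.8% higher and 40.1% lower in SKMEL30. The median log2 difference was 0.82 over the members and -0.05 over all genes, and 18 members differed by more than 1 on the log2 scale. Together the members took 0.609% to 0.751% of all counts in SKMEL2 libraries and 1.25% to 1.3003% in SKMEL30 libraries. PMEL alone made up 21.8% to 25.9% of the members' summed CPM in uninduced SKMEL2 and 39.9% to 40.7% in uninduced SKMEL30.

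**Figure D1:**
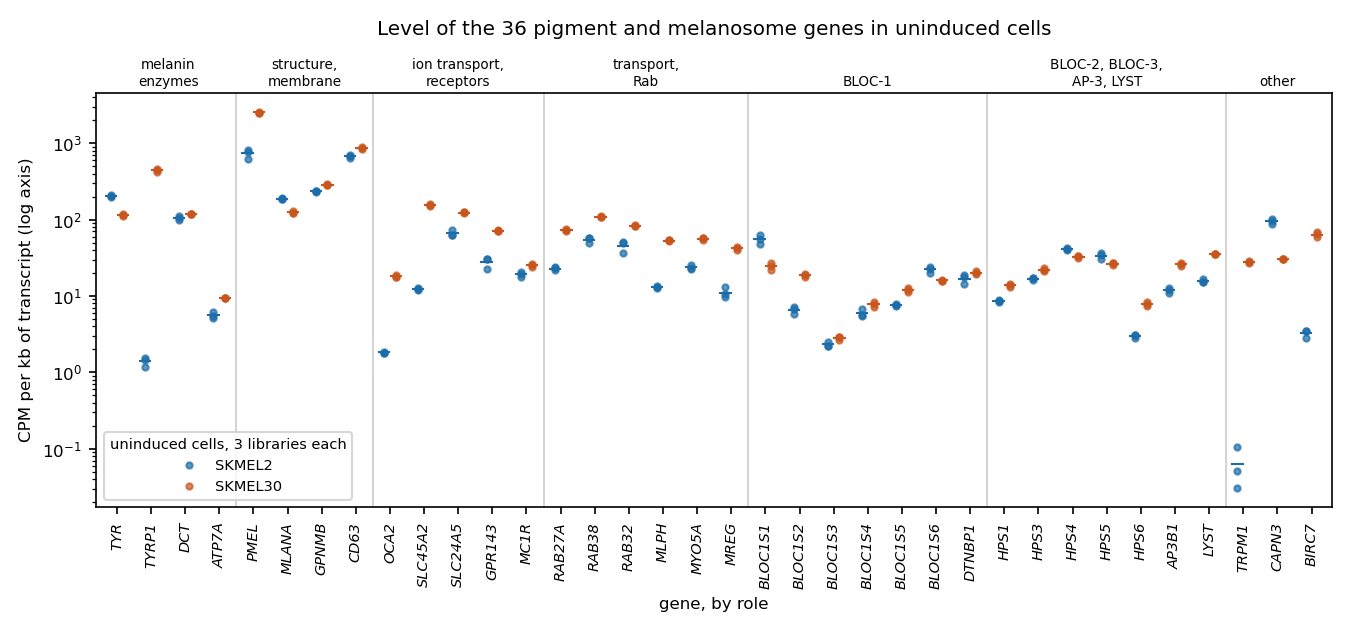
Level of each of the 36 genes in the 3 uninduced libraries of SKMEL2 (blue) and SKMEL30 (orange), as CPM per kb of the canonical transcript on a log axis, with genes grouped by role and short lines at the means. TYRP1 and TRPM1 show the widest gaps between the lines, and the DCT points of the lines lie close together.

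Per kb of transcript, PMEL and CD63 led both lines. In SKMEL2 their means of 734 ± 106 and 672 ± 29.0 CPM per kb (SD, n = 3) lay within their summed SDs. In SKMEL30, PMEL stood apart at 2526 ± 54.0 CPM per kb (SD, n = 3) and CD63 followed at 863 ± 24.4. The next places went to GPNMB, TYR and MLANA in SKMEL2, but to TYRP1, GPNMB and SLC45A2 in SKMEL30. Of the 35 pairs of neighbours in this order, 19 in SKMEL2 and 11 in SKMEL30 were closer than their summed SDs and so did not differ beyond their spread. The last place was held by TRPM1 in SKMEL2 at 0.0627 ± 0.0393 CPM per kb and by BLOC1S3 in SKMEL30 at 2.85 ± 0.139.

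The melanin enzymes went different ways. TYR, tyrosinase (ENSG00000077498, chr11:89177875-89295759), had 437, 423 and 410.1 CPM in uninduced SKMEL2 and 232, 239 and 243 CPM in uninduced SKMEL30. It was thus lower in every SKMEL30 library, with a log2 difference of -0.83 ± 0.04 (SE; edgeR adjusted p = 8.335e-13). TYRP1, which stabilises tyrosinase and acts on a later intermediate (ENSG00000107165, chr9:12693385-12710285), had 3.43, 4.47 and 4.26 CPM in SKMEL2 and 1319, 1234 and 1293 CPM in SKMEL30. Its log2 difference was 8.29 ± 0.21 (SE; edgeR adjusted p = 1.483e-17), a 313-fold higher level in SKMEL30. DCT, dopachrome tautomerase (ENSG00000080166, chr13:94436811-94549406), had 572, 539 and 509 CPM in SKMEL2 and 604, 604 and 599 CPM in SKMEL30. The 3 SKMEL30 libraries lay above the 3 SKMEL2 libraries, but the log2 difference of 0.16 ± 0.11 (SE) did not pass the test (edgeR adjusted p = 0.218). ATP7A, the pump that brings copper to tyrosinase, was 1.68-fold higher in SKMEL30, at 9.46 ± 0.127 against 5.63 ± 0.547 CPM per kb (SD, n = 3). It overlaps PGK1 on the same strand, a gene with far more counts.

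Among the structural and membrane proteins, PMEL and MLANA differed in direction. PMEL (ENSG00000185664, chr12:55954105-55966709) had 1732, 1643 and 1306 CPM in SKMEL2 and 5503, 5299.5 and 5309 CPM in SKMEL30, so that no libraries overlapped, with a log2 difference of 1.78 ± 0.10 (SE; edgeR adjusted p = 2.162e-12). CDK2 overlaps it on the opposite strand and had at most 24.6% of the counts of both genes in any library. MLANA, the melanoma antigen MART-1 (ENSG00000120215), had 451, 427 and 431 CPM in SKMEL2 and 288, 287 and 301 CPM in SKMEL30. It was lower in SKMEL30 by a log2 value of -0.58 ± 0.06 (SE; edgeR adjusted p = 6.91e-08). The membrane glycoprotein GPNMB was 1.23-fold and the tetraspanin CD63 1.28-fold higher in SKMEL30, at 287 ± 6.56 and 863 ± 24.4 CPM per kb there (SD, n = 3).

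All 5 ion transporters and receptors were higher in SKMEL30. SLC45A2, a melanosomal transporter that affects luminal pH (ENSG00000164175, chr5:33944623-33984693), had 21.5, 21.0 and 21.7 CPM in SKMEL2 and 262, 273 and 269 CPM in SKMEL30. With a log2 difference of 3.65 ± 0.05 (SE; edgeR adjusted p = 1.188e-20), it had the smallest p of the 36 members. OCA2, needed for a chloride current of the melanosome, was 9.90-fold higher, at 18.1 ± 0.585 against 1.82 ± 0.00848 CPM per kb (SD, n = 3). GPR143, the receptor mutated in ocular albinism, was 2.57-fold higher in SKMEL30, at 71.4 ± 0.765 against 27.9 ± 4.67 CPM per kb. SLC24A5, a potassium-dependent sodium and calcium exchanger, was 1.86-fold higher, at 124 ± 2.04 against 66.4 ± 6.56 CPM per kb. MC1R, the receptor for melanocyte stimulating hormone, was 1.31-fold higher, at 25.2 ± 1.31 against 19.2 ± 1.41 CPM per kb, and lost the call without replicate 3 of uninduced SKMEL2 (log2 0.34, edgeR adjusted p = 0.0501). TCF25 overlaps MC1R on the same strand and had up to 57.5% of the counts of both, so that the level of MC1R is uncertain.

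The 6 transport and Rab genes were all higher in SKMEL30 as well, with log2 differences from 0.88 to 2.03. RAB27A, the small GTPase that marks mature melanosomes for transport (ENSG00000069974, chr15:55202966-55319123), had 81.7, 80.2 and 74.5 CPM in SKMEL2 and 242, 251 and 261 CPM in SKMEL30 (log2 1.67 ± 0.07, SE; edgeR adjusted p = 4.603e-14). MREG, melanoregulin, which acts in melanosome transport (ENSG00000118242, chr2:215939308-216034096), had 40.9, 33.8 and 30.2 CPM in SKMEL2 and 128, 134 and 139 CPM in SKMEL30 (log2 1.94 ± 0.08, SE; edgeR adjusted p = 1.971e-14). In neither gene did libraries of the lines overlap, and 37.1% of all genes likewise had all SKMEL30 libraries above all SKMEL2 ones. The other partners of the transport complex followed, with MLPH, the linker to the motor, 4.07-fold and MYO5A, the motor itself, 2.40-fold higher. In SKMEL30 they stood at 53.1 ± 0.592 and 56.5 ± 2.07 CPM per kb, and in SKMEL2 at 13.02 ± 0.301 and 23.6 ± 1.55. RAB38 and RAB32, which sort the melanin enzymes, were 2.02-fold and 1.84-fold higher, at 109 ± 1.84 and 83.1 ± 1.84 CPM per kb in SKMEL30 against 54.1 ± 4.71 and 45.3 ± 7.50 in SKMEL2.

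The sorting complexes were split. Of the 7 BLOC-1 subunits, BLOC1S2 (2.83-fold), BLOC1S5 (1.59-fold), BLOC1S4 (1.31-fold), BLOC1S3 (1.23-fold) and DTNBP1 (1.20-fold) were higher in SKMEL30, while BLOC1S1 and BLOC1S6 were lower. BLOC1S1 (ENSG00000135441, chr12:55716046-55719703) had 31.0, 35.0 and 27.2 CPM in SKMEL2 and 15.1, 12.2 and 13.9 CPM in SKMEL30, a log2 difference of -1.18 ± 0.11 (SE; edgeR adjusted p = 6.364e-09). ITGA7 overlaps it on the opposite strand, and whether the counting used strand is not given in the sources used here. BLOC1S6 was 1.39-fold higher in SKMEL2, at 22.3 ± 2.13 against 16.0 ± 0.294 CPM per kb (SD, n = 3). The higher subunits stood at 18.6 ± 0.882 (BLOC1S2), 12.02 ± 0.649 (BLOC1S5), 7.81 ± 0.502 (BLOC1S4), 2.85 ± 0.139 (BLOC1S3) and 20.3 ± 0.912 CPM per kb (DTNBP1) in SKMEL30. In SKMEL2 the same subunits stood at 6.60 ± 0.666, 7.57 ± 0.234, 5.94 ± 0.663, 2.32 ± 0.158 and 16.9 ± 2.31 CPM per kb. Readthrough transcripts share sequence with BLOC1S5, whose level is uncertain for this reason. The small differences of BLOC1S3 and DTNBP1 lost the call in 7 and in 2 of 12 alternative settings. Subunits of 1 complex also differed in level within a line: in uninduced SKMEL2 they ran from BLOC1S3 at the bottom to BLOC1S1 at 55.2 ± 6.95 CPM per kb.

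Of the other 7 sorting genes, HPS6 (2.66-fold), LYST (2.24-fold), AP3B1 (log2 1.14), HPS1 (1.60-fold) and HPS3 (1.32-fold) were higher in SKMEL30. HPS5 and HPS4 were 1.27-fold and 1.24-fold higher in SKMEL2. In SKMEL30 the levels were 7.91 ± 0.473 (HPS6), 35.1 ± 0.109 (LYST), 26.2 ± 1.17 (AP3B1), 22.1 ± 0.752 (HPS3) and 26.5 ± 0.8997 CPM per kb (HPS5). In SKMEL2 these genes stood at 2.98 ± 0.144, 15.7 ± 0.928, 11.9 ± 0.935, 16.7 ± 0.443 and 33.7 ± 2.62 CPM per kb. HPS3, HPS5 and HPS6 are the subunits of BLOC-2, so that 2 subunits of this complex were higher and 1 was lower in SKMEL30. HPS1 and HPS4 form BLOC-3, and they too went in opposite directions. In level, HPS4 stood above HPS1 in both lines, at 40.8 ± 1.16 against 8.62 ± 0.369 CPM per kb in SKMEL2 and 32.9 ± 1.06 against 13.7 ± 0.737 in SKMEL30 (SD, n = 3). PYROXD2 overlaps HPS1 on the same strand and had up to 38.2% of the counts of both. SRRD overlaps HPS4 on the opposite strand and had up to 31.5%. AP3B1 is the beta subunit of the AP-3 adaptor, and LYST is the gene of Chediak-Higashi syndrome, in which melanosomes are enlarged.

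The 3 other genes of the lineage held the extremes in both directions. TRPM1, a cation channel of melanocytes and the retina (ENSG00000134160, chr15:31001065-31161160), had 0.175, 0.298 and 0.616 CPM in SKMEL2, from 3 to 14 counts per library, and 158, 162 and 164 CPM in SKMEL30. The fitted log2 difference was 8.69 ± 0.14 (SE; edgeR adjusted p = 5.471e-20). From the 23 pooled counts in SKMEL2, the ratio of the lines was 421, with an exact 95% Poisson interval of 281 to 664 that covers the counting error of SKMEL2 only. BIRC7, the inhibitor of apoptosis called livin (ENSG00000101197, chr20:63235905-63240495), had 4.598, 4.67 and 3.78 CPM in SKMEL2 and 86.7, 90.7 and 78.0 CPM in SKMEL30 (log2 4.30 ± 0.12, SE; edgeR adjusted p = 4.766e-17). CAPN3, a calpain protease (ENSG00000092529, chr15:42359501-42412317), was the member most in favour of SKMEL2, with 292, 318 and 338 CPM there and 101, 103 and 100.3 CPM in SKMEL30 (log2 -1.64 ± 0.06, SE; edgeR adjusted p = 3.109e-15). ZNF106 overlaps CAPN3 on the opposite strand, with more counts than CAPN3 in some libraries.

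**Figure D2:**
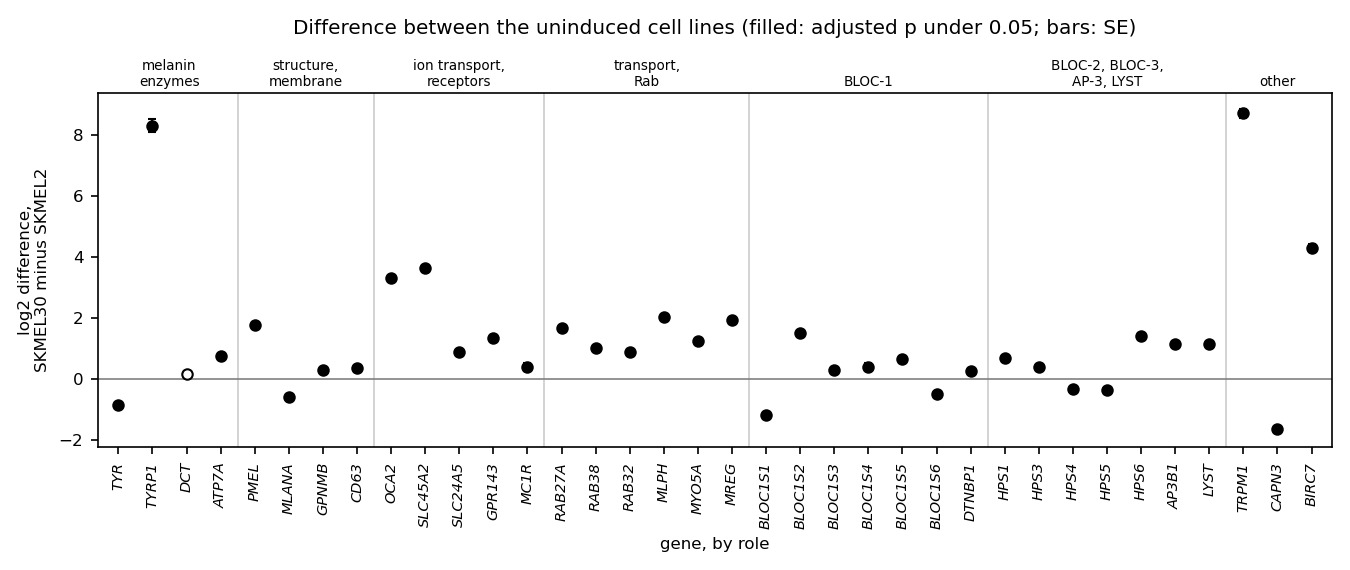
Log2 difference between uninduced SKMEL30 and uninduced SKMEL2 for each gene, by role, with 3 libraries per line. Filled points passed an adjusted p of 0.05 and bars are standard errors, most of them smaller than the points. Values above 0 are higher in SKMEL30: 28 filled points lie above 0, 7 lie below, and DCT is open.

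Of 32 other melanosome and sorting genes that are not members, 17 were higher and 7 lower in SKMEL30, with a median log2 difference of 0.18. Of all genes, 35.8% were higher and 40.1% lower by the same test. DESeq2 called 22 of the 32, and 12789 of the 35505 genes it tested. MITF, which drives the lineage, had 419, 396 and 409 CPM in SKMEL2 and 789, 788 and 815 CPM in SKMEL30, and was higher there by 0.97 ± 0.05 (log2, SE; edgeR adjusted p = 2.486e-13). Of 13 upstream regulators of pigment genes, 10 were tested in edgeR, where 75.9% of all genes passed. Of the 10 regulators, 6 were higher and 2 were lower in SKMEL30, and DESeq2 called 8. Their part in the members' levels was not tested.

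The low TYRP1 and TRPM1 values in SKMEL2 stand beside another measurement. Among the 2414 genes above a mean of 100 CPM in uninduced SKMEL30, the lowest in uninduced SKMEL2, as a percent of their SKMEL30 level, were COL4A1 (0.0251%), COL4A2 (0.106%), IFI27 (0.140%), TRPM1 (0.225%) and TYRP1 (0.316%). Replicate 1 of SKMEL2 at 6 hours stood apart. There COL4A1 reached 0.880%, COL4A2 0.931% and IFI27 0.931% of their SKMEL30 levels, and TYRP1 reached 0.946%. TRPM1 was at 0.549% in that library. In the other 8 SKMEL2 libraries TYRP1 ran from 0.268% to 0.503%. The part of reads from SKMEL30 in these values was not tested.

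**Figure D3:**
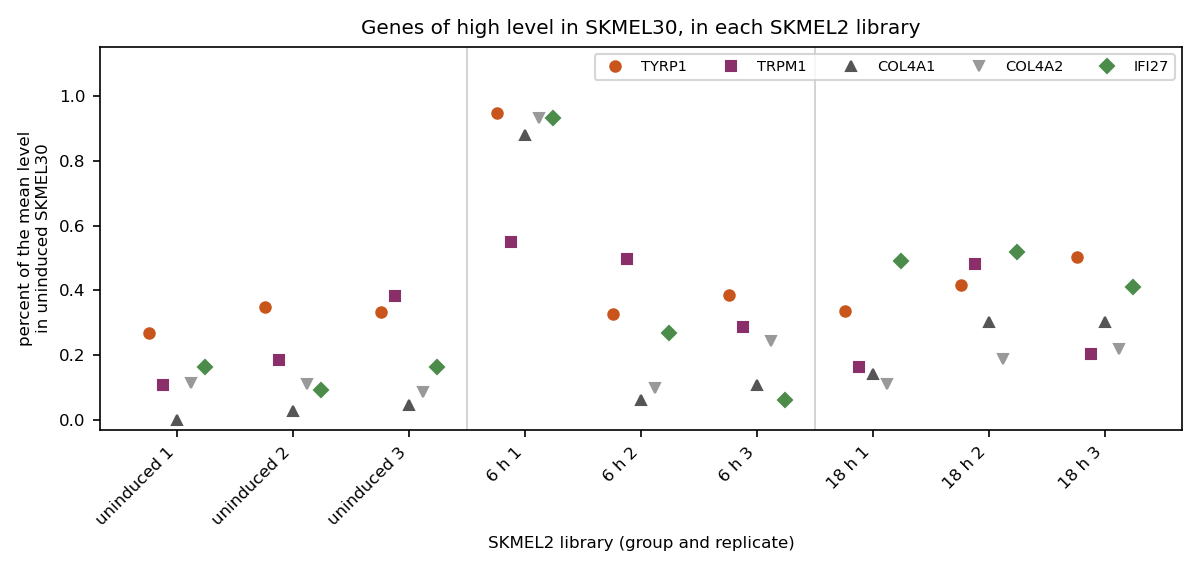
Level of 5 genes in each of the 9 SKMEL2 libraries, as a percent of their mean level in uninduced SKMEL30. Of the genes, 4 lie between 0.880% and 0.946% in replicate 1 at 6 hours and at or below 0.518% in every other library, while TRPM1 lies at 0.549% in that library and at 0.498% in the next.

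The second question was whether induction of PPP2R3B changed the members. In SKMEL30 at 18 hours 1 member passed the test, and 0.293% of all 15026 genes did. This was SLC45A2, which was 262, 273 and 269 CPM in uninduced cells, 255, 256 and 256 CPM at 6 hours and 238, 237 and 243 CPM at 18 hours. The 3 times did not overlap, with the highest level in uninduced cells and the lowest at 18 hours. The log2 fold change at 18 hours was -0.16 ± 0.03 (SE; edgeR's quasi-likelihood test with Benjamini-Hochberg adjustment, adjusted p = 0.00912), a change of -10.7%. At 6 hours it was -0.07 ± 0.03 and did not pass (edgeR adjusted p = 0.656). The call was lost without replicate 2 of the uninduced cells (adjusted p = 0.0734), without replicate 1 (0.0797) or replicate 2 (0.0795) of 18 hours, and in a fit of all 18 libraries (0.430), while the log2 value stayed between -0.18 and -0.15 over 13 alternatives.

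At an unadjusted p under 0.05, 9 of the 36 members stood out in SKMEL30 at 18 hours, 2 above and 7 below 0, and 9.14% of all genes had such a p. TYRP1 stood next to SLC45A2, with 1319, 1234 and 1293 CPM uninduced and 1201, 1104 and 1151 CPM at 18 hours, so that all induced libraries were below all uninduced ones (log2 -0.15 ± 0.04, SE; edgeR adjusted p = 0.137). DCT went the other way, from 604, 604 and 599 CPM to 646, 648 and 643 CPM, also without overlap (log2 0.10 ± 0.03, SE; edgeR adjusted p = 0.204). DESeq2 called 3 members here, SLC45A2 and TYRP1 lower and DCT higher, and 69 of the 30520 genes it tested. TRPM1 had 158, 162 and 164 CPM uninduced and 150.2, 151 and 148 CPM at 18 hours (log2 -0.11 ± 0.03, SE; edgeR adjusted p = 0.251). RAB32 (log2 -0.11), DTNBP1 (-0.14), HPS3 (-0.09) and MLANA (-0.06) completed the lower values and MREG (0.10) the higher ones, and the smallest edgeR adjusted p among these 5 was 0.320. TYR had 232, 239 and 243 CPM uninduced and 234, 239 and 237 CPM at 18 hours, and PMEL had 5463, 5280.2 and 5248 CPM at 18 hours, both overlapping their uninduced libraries. MLANA had 278, 279 and 283 CPM at 18 hours, below its uninduced libraries. MREG had 138, 145 and 145 CPM and RAB27A 262, 253 and 264 CPM, and both overlapped. CAPN3 at 101, 109.7 and 100.4 CPM, BLOC1S1 at 13.4, 13.7 and 13.4 CPM and BIRC7 at 75.4, 86.6 and 79.9 CPM overlapped as well.

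Over the whole list in SKMEL30 at 18 hours, 16 members were above 0 and 20 below, and the median log2 fold change was -0.01 (0.0007 over all genes). In 4 members all 3 induced libraries lay above all 3 uninduced ones, and in 9 they lay below. Over all genes these shares were 7.88% and 8.13%. Every member's log2 fold change lay within 0.2 of 0, and the median standard error was 0.04.

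At 6 hours in SKMEL30, 0 members passed the test in edgeR and 0 in DESeq2, and 0.206% of all genes passed. In edgeR, 5 members had an unadjusted p under 0.05, and 6.44% of all genes had such a p. The 5 became 2 without replicate 1 or 2 of the uninduced cells and 3 without replicate 2 or 3 of 6 hours. The 2 members with the smallest p were SLC45A2 and MREG, which had 128, 134 and 139 CPM uninduced and 140.1, 144 and 142 CPM at 6 hours (log2 0.09 ± 0.04, SE; edgeR adjusted p = 0.693; log2 0.06 without replicate 1 of the uninduced cells). TYR had 246, 250.1 and 249 CPM at 6 hours, above all uninduced libraries, and GPR143 113, 110.0 and 114 CPM against 116, 119 and 117 CPM. Neither passed (edgeR adjusted p = 0.756 and 0.760). Libraries did not overlap in 2 members above and 4 members below, against 5.44% and 5.83% of all genes.

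The other members given by library overlapped their uninduced libraries at 6 hours in SKMEL30. TYRP1 had 1288, 1216 and 1207 CPM, DCT 590.2, 627 and 588 CPM and PMEL 5425, 5027 and 5229 CPM. MLANA had 286, 290.2 and 283 CPM and TRPM1 150.1, 159.8 and 151 CPM. The transport GTPase RAB27A had 249, 268 and 257 CPM. CAPN3 had 108, 98.7 and 103 CPM, BLOC1S1 16.4, 14.4 and 13.2 CPM and BIRC7 78.5, 83.6 and 86.2 CPM.

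**Figure D4:**
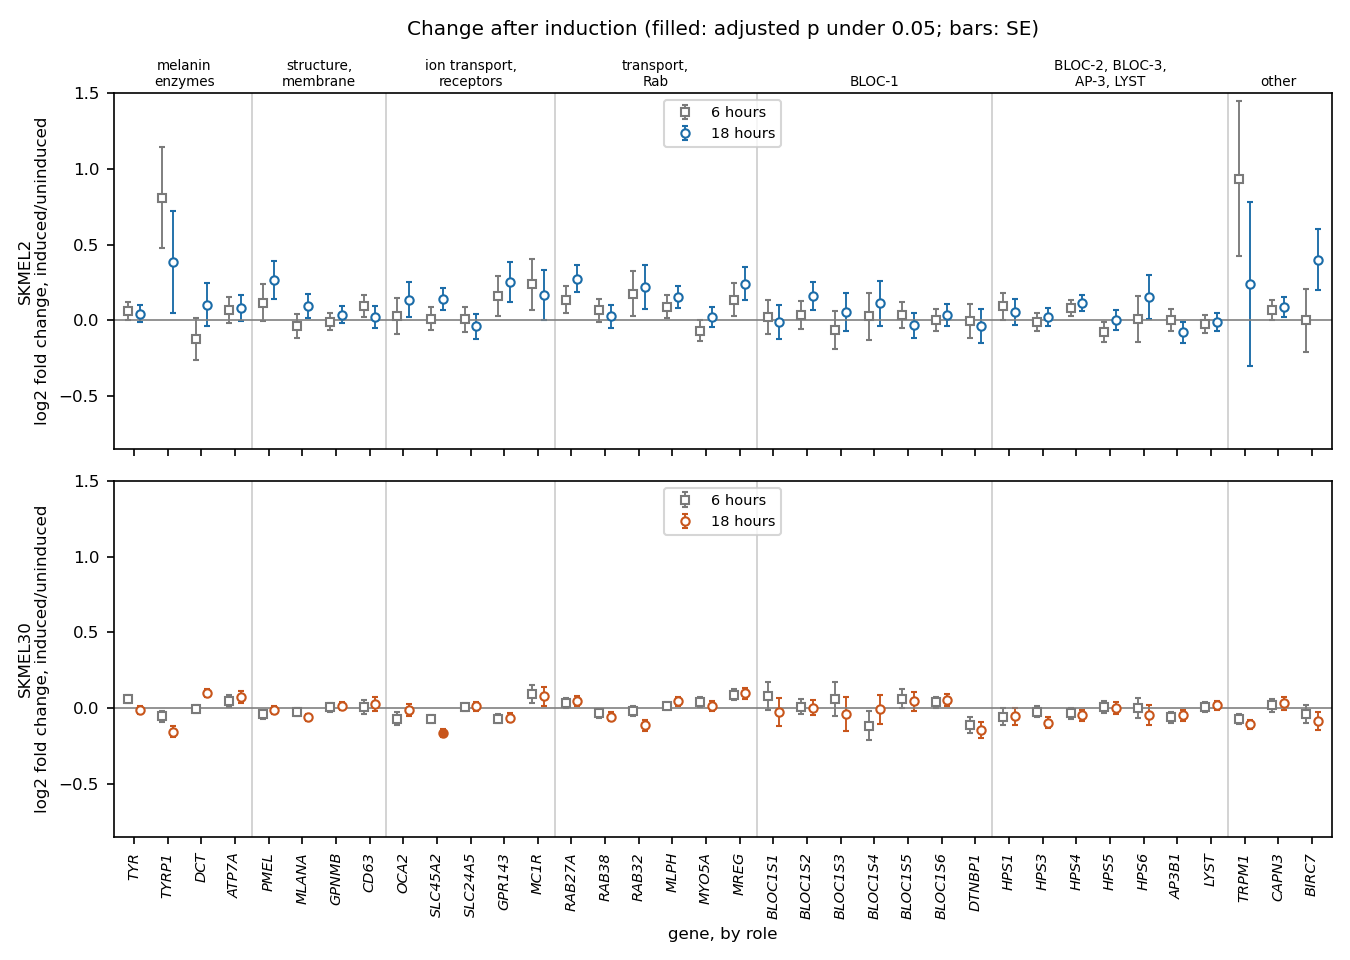
Log2 fold change of each gene against uninduced cells of the same line after 6 hours (grey squares) and 18 hours (coloured circles), SKMEL2 above and SKMEL30 below, with standard errors from edgeR. SLC45A2 in SKMEL30 at 18 hours (-0.16) is the only filled point, meaning an adjusted p under 0.05, and the widest bars belong to TYRP1 and TRPM1 in SKMEL2.

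In SKMEL2 at 18 hours, 0 members passed in edgeR and 0 in DESeq2, and 0.0124% of all 16120 genes passed. An unadjusted p under 0.05 was seen in edgeR for 3 members, and 4.65% of all genes had such a p. The 3 became 1 without replicate 3 of the uninduced cells or replicate 1 of 18 hours, and ran from 1 to 4 with 1 library left out. Most members were above 0 all the same: 30 of the 36 had a log2 fold change above 0, the median log2 fold change was 0.09 (-0.0002 over all genes), and 50% of all genes were above 0. In 14 members all 3 induced libraries lay above all 3 uninduced ones and in 0 below, where 7.43% and 6.9% of all genes did so. These 14 members were measured in the same 6 libraries and are not independent of each other. In 20 of the 36 members replicate 3 was the lowest of the uninduced libraries (55.6%, against 34.3% of all genes), and without it 26 members were above 0 and the median was 0.07. Over the 6 libraries left out in turn, 26 to 33 members were above 0.

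Of the members, RAB27A came first by p in SKMEL2 at 18 hours, with 81.7, 80.2 and 74.5 CPM uninduced, 94.9, 92.2 and 72.1 CPM at 6 hours and 97.7, 92.6 and 96.1 CPM at 18 hours. All 18-hour libraries were above all uninduced ones, and replicate 3 at 6 hours was the lowest of the 9 (log2 at 18 hours 0.28 ± 0.09, SE; edgeR adjusted p = 0.987). MREG had 40.9, 33.8 and 30.2 CPM uninduced and 40.6, 42.3 and 41.1 CPM at 18 hours, which overlapped (log2 0.24 ± 0.11, SE; edgeR adjusted p = 0.987). Its log2 value was 0.37 without replicate 1 and 0.14 without replicate 3 of the uninduced cells. PMEL had 1732, 1643 and 1306 CPM uninduced and 1987, 1841 and 1814 CPM at 18 hours. Replicate 3 of the uninduced cells was low, and without it the log2 value of 0.27 ± 0.12 (SE; edgeR adjusted p = 0.987) became 0.15. SLC45A2, the member that was lower in SKMEL30, had 21.5, 21.0 and 21.7 CPM uninduced and 23.1, 24.0 and 23.9 CPM at 18 hours, all above the uninduced libraries (log2 0.14 ± 0.07, SE; edgeR adjusted p = 0.987). BIRC7 showed the same order, with 4.598, 4.67 and 3.78 CPM uninduced and 6.02, 6.22 and 4.96 CPM at 18 hours.

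TYR had 454, 422 and 437 CPM, DCT 609, 580.4 and 553 CPM and MLANA 478, 461 and 459 CPM at 18 hours in SKMEL2. TYR and DCT overlapped their uninduced libraries, and MLANA lay above them. CAPN3 had 332, 326 and 352 CPM and BLOC1S1 32.8, 29.9 and 29.6 CPM, both overlapping. TYRP1 had 4.30, 5.33 and 6.45 CPM and TRPM1 0.263, 0.777 and 0.331 CPM, which overlapped too.

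At 6 hours in SKMEL2, again 0 members passed in edgeR and 0 in DESeq2, and 0.0124% of all genes passed. In edgeR, 1 member had an unadjusted p under 0.05, and 3.37% of all genes had such a p. The count was 0 without replicate 1 of 6 hours, 6 without replicate 2 and 3 without replicate 3. In 0 members did the libraries not overlap in either direction, against 3.19% of all genes above and 3.61% below. TYRP1 had the smallest p. Its levels were 3.43, 4.47 and 4.26 CPM uninduced and 12.1, 4.19 and 4.95 CPM at 6 hours, so that 1 library carried the difference (log2 0.81 ± 0.33, SE; edgeR adjusted p = 0.989). Without that library, replicate 1, which also held more of the genes typical of SKMEL30, the log2 value was 0.17 ± 0.21. TRPM1 followed with 0.886, 0.803 and 0.462 CPM against 0.175, 0.298 and 0.616 CPM uninduced, which overlapped (log2 0.93 ± 0.51, SE; edgeR adjusted p = 0.989; log2 1.57 without replicate 3 of the uninduced cells). DCT in replicate 3 at 6 hours was the lowest of the 9 libraries at 349.8 CPM, beside 593 and 545 CPM. MC1R was highest in the same library, at 65.1 CPM beside 40.8 and 37.5 CPM.

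The remaining members given by library had no common order of replicates at 6 hours in SKMEL2. TYR had 452, 417 and 456 CPM, PMEL 1889.8, 1379 and 1796 CPM and MLANA 447, 464 and 362 CPM. Replicate 3 was lowest for MLANA and replicate 2 for TYR and PMEL. SLC45A2 had 23.0, 21.6 and 19.9 CPM and MREG 42.3, 35.3 and 37.1 CPM. CAPN3 had 309, 350.2 and 333 CPM, BLOC1S1 31.3, 27.6 and 35.6 CPM and BIRC7 5.15, 2.98 and 4.88 CPM. Replicate 2 was highest for CAPN3 and lowest for BLOC1S1 and BIRC7.

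Between 6 and 18 hours, 0 members passed in SKMEL2 (edgeR and DESeq2), where 0% of all genes passed. At an unadjusted p under 0.05 in edgeR there were 0 members against 2.59% of all genes, and 2 to 4 members when a library of 6 hours was left out. In SKMEL30 0 members passed by either tool, where 0.02% of all genes passed. At an unadjusted p under 0.05 in edgeR there were 5 members against 5.56% of all genes, and 3 members without replicate 2 of 18 hours. DCT (log2 0.10 ± 0.03, SE) and SLC45A2 (log2 -0.10 ± 0.03, SE) had the smallest p of the members in SKMEL30, with edgeR adjusted p of 0.565 and 0.568 and no overlap between the times.

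**Figure D5:**
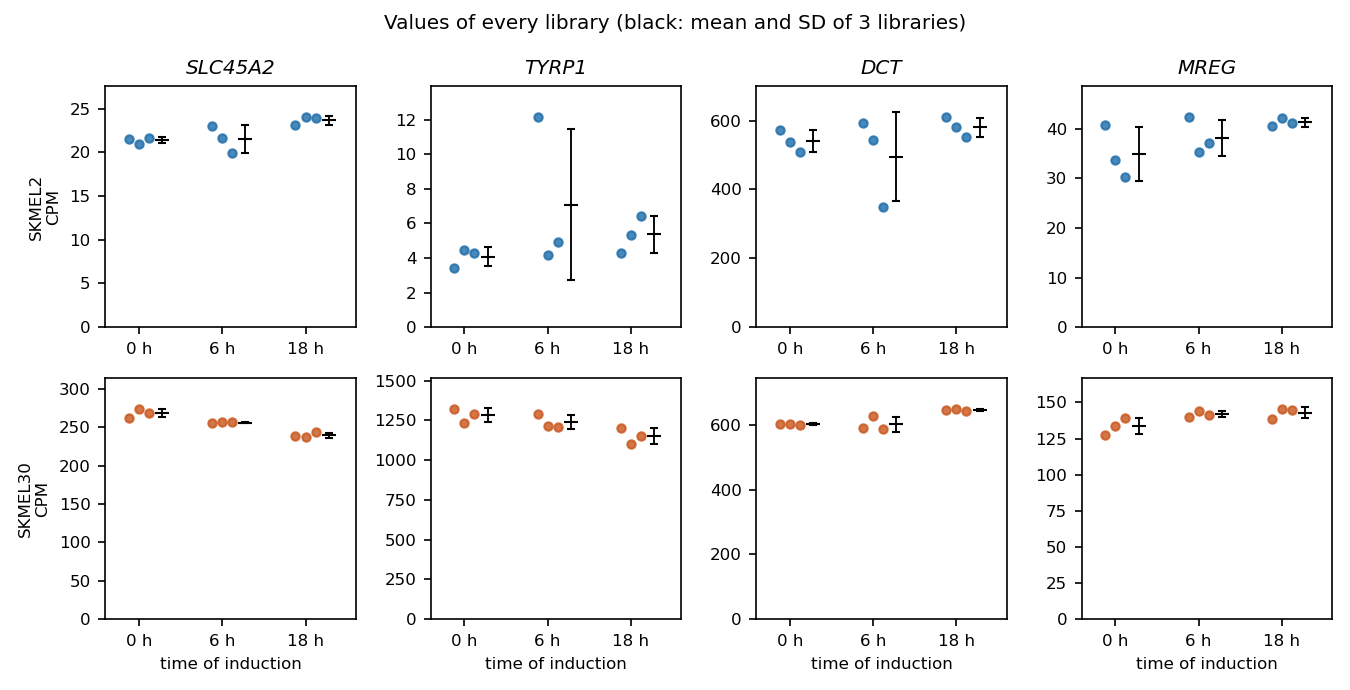
CPM of SLC45A2, TYRP1, DCT and MREG in each library of SKMEL2 (top) and SKMEL30 (bottom) by time of doxycycline, with 0 h for uninduced cells, axes from 0, and the mean and SD of 3 libraries in black. SLC45A2 in SKMEL30 steps down from 262 to 273 CPM at 0 h to 237 to 243 CPM at 18 h, and TYRP1 in SKMEL2 at 6 h has 1 library at 12.1 CPM.

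Whether the lines responded differently was tested as an interaction over all 18 libraries. At 18 hours 0 members passed in edgeR and 0 in DESeq2, and 0.00584% of all 17133 genes passed. An unadjusted p under 0.05 was seen in edgeR for 6 members, and 5.16% of all genes had such a p. That count ran from 2 to 8 with 1 library left out: it was 2 without replicate 3 of uninduced SKMEL2, and 3 without replicate 1 of SKMEL2 or replicate 2 of SKMEL30 at 18 hours. The 6 members were SLC45A2 (-0.31 ± 0.07), BIRC7 (-0.49 ± 0.18), HPS4 (-0.16 ± 0.06), GPR143 (-0.32 ± 0.14), RAB27A (-0.23 ± 0.10) and RAB32 (-0.34 ± 0.16), given as the log2 response in SKMEL30 minus that in SKMEL2 with its SE. All 6 were lower in SKMEL30 relative to SKMEL2, and the smallest adjusted p was 0.732 for SLC45A2 (edgeR). Without replicate 3 of uninduced SKMEL2, the GPR143 value was -0.18 and the RAB32 value -0.20. Over the list, 30 of 36 differences were below 0 and 6 above, with a median of -0.11 (0.0037 over all genes). Of all genes, 50.9% were above 0. With 1 library left out, 3 to 10 members were above 0. Without replicate 3 of uninduced SKMEL2, 9 members were above 0 and the median was -0.08. These differences rest on the same SKMEL2 libraries as the response in SKMEL2 at 18 hours and are not independent of it. Of the 36 members 13 were above 0 in both lines, 3 below 0 in both, and 17 above 0 in SKMEL2 and below 0 in SKMEL30. The same sign in both lines was thus seen in 44.4% of members and in 49.7% of all 14079 genes tested in both. At 6 hours 0 members passed in either tool, and 0% of all genes passed. At an unadjusted p under 0.05 in edgeR there were 2 members, TYRP1 and TRPM1, against 4.91% of all genes, and 0 to 5 members with 1 library of SKMEL2 at 6 hours left out. The TYRP1 value of -0.87 ± 0.31 (SE) was -0.20 without replicate 1 of SKMEL2 at 6 hours.

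The spread of the members between replicates differed between the lines. Their median coefficient of variation in the 3 groups was 7.30%, 8.81% and 3.74% in SKMEL2 (uninduced, 6 and 18 hours) and 3.23%, 3.63% and 1.92% in SKMEL30. In all groups it was below that of all tested genes, with group medians of 6.11% to 11.2% for SKMEL2 and 4.99% to 5.84% for SKMEL30. The median standard error of the members' log2 fold change at 18 hours was 0.09 in SKMEL2 and 0.04 in SKMEL30.

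Of the genes around the list, 0 of 32 other melanosome and sorting genes passed in SKMEL2 at either time and 0 of 31 in SKMEL30 at 6 hours by edgeR or by DESeq2. At an unadjusted p under 0.05 in edgeR there were 2 at 6 hours and 0 at 18 hours in SKMEL2 and 4 at 6 hours in SKMEL30. Of all genes, 3.37%, 4.65% and 6.44% had such a p in these comparisons. In SKMEL30 at 18 hours 1 passed in edgeR and 0 in DESeq2, with 4 at an unadjusted p under 0.05 in DESeq2. Of all genes there, 0.293% passed in edgeR, and 647 of 30520 had such a p in DESeq2. The gene that passed in edgeR was SLC24A4, an exchanger related to SLC24A5, with 21.2, 20.5 and 21.95 CPM uninduced, 16.1, 19.95 and 18.4 CPM at 6 hours and 15.3, 15.9 and 16.1 CPM at 18 hours (log2 at 18 hours -0.43 ± 0.07, SE; edgeR adjusted p = 0.0224). The smallest p in the other comparisons belonged to SYTL2, a Rab27 effector, at 6 hours in both lines (log2 -0.23 ± 0.09 in SKMEL2 and -0.18 ± 0.05 in SKMEL30), and to VPS33A at 18 hours in SKMEL2 (log2 0.12 ± 0.06). None of the upstream regulators passed in any of these 4 comparisons by edgeR, 9 of them tested in SKMEL2 and 10 in SKMEL30. At an unadjusted p under 0.05 there were 1 and 1 in SKMEL2 and 1 and 4 in SKMEL30, at 6 and 18 hours. The shares of all genes were 3.37% and 4.65% in SKMEL2 and 6.44% and 9.14% in SKMEL30. LEF1 came first by p in SKMEL2 at both times, TFAP2A in SKMEL30 at 6 hours and DDB1 there at 18 hours (log2 -0.09 ± 0.03, SE; edgeR adjusted p = 0.220). DESeq2 called DDB1 in that comparison, where it called 69 of 30520 genes, and 0 regulators in the other 3. MITF had 404, 413 and 418 CPM in SKMEL2 and 763, 763 and 791 CPM in SKMEL30 at 18 hours, with log2 fold changes of 0.01 ± 0.06 and -0.05 ± 0.03 (SE; edgeR adjusted p = 0.994 and 0.677).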

How the data were processed

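mRNA libraries (KAPA mRNA HyperPrep kit) of the 18 samples were read as 1 table of genes by libraries. Its values are expected counts deposited by the authors, estimated by RSEM from STAR alignments to the human transcriptome and not normalised. The study's methods name Cutadapt 1.9.1, STAR 2.5.2a, Samtools 1.8, RSEM 1.3.0 and Ensembl release 86, whereas the submitters' processing notes name Trimmomatic 0.36, cutadapt 1.5 and STAR 2.2.2a. The strand setting of the counting is not given in the sources used here. Of the values 12.3% were not whole, and expected counts were rounded before any test. Every column was matched to a sample by its label, and groups were taken from the labels.

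Each cell line was fitted on its 9 libraries with edgeR 4.0.16 (R 4.3.3, limma 3.58.1): genes were kept by filterByExpr, scaled by TMM and tested by the quasi-likelihood test with Benjamini-Hochberg adjustment over all genes kept at 0.05. The lines and their responses (an interaction term) were compared in 1 fit of all 18 libraries. CPM are counts per 1000000 after TMM scaling. CPM per kb are divided by the length of the Ensembl canonical transcript in the GENCODE annotation, as levels between genes are comparable only per length. Standard errors were derived from the quasi-likelihood F statistic. Replicates of a group differed by more than sampling noise (chi-square per degree of freedom 2.13 to 20.6), so none was counted as a duplicate. The common dispersion came to a biological coefficient of variation of 8.36% (SKMEL2) and 4.11% (SKMEL30). The scripts were tested on simulated data.

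Replicate numbers recur in every group. The correlation of deviations from the group means between libraries with the same number was above 0.1 in 3 of 9 pairs in SKMEL2 and 1 of 9 in SKMEL30, so the numbers were not taken to pair the libraries.

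The members and gene lists were chosen with earlier results of these data known. Library values are given for TYR, TYRP1, DCT, PMEL and MLANA, for members called in a comparison of induced groups, for the 2 members with the smallest p in each comparison with uninduced cells, and for the 4 members with the largest difference between lines in each direction. Of genes that are no members, MITF and those called or with the smallest p of their list are named. Values of GPR143 and MC1R by library were added after they were seen. Alternatives were RLE scaling, no filter, at least 10 counts in every library, a replicate block, DESeq2 1.42.0, other sets of libraries and leaving out each library. Promoter windows are from RefSeq on GRCh38.p14, which also gave the gene coordinates.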

Additional observations from a re-analysis of the deposited data

How the results depend on the processing

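The difference between the lines was the most stable result: 33 to 36 members were called over its alternatives (33 to 35 with 1 library left out), and none of 431 values changed sign. DCT was called with no filter (edgeR adjusted p = 0.0109) and with only the 6 uninduced libraries (0.0201). The count of members called in SKMEL30 at 18 hours, 1, was 2 with no filter, 3 with DESeq2, 0 in a fit of all 18 libraries and 0 to 1 with 1 library left out. Over all genes, the calls there went from 44 to 69 with DESeq2, to 9 in that fit and to 25 to 30 with 1 library left out. With no filter on low counts, 1 member was called in SKMEL2 at 6 hours (TYRP1, edgeR adjusted p = 0.00223), 1 in SKMEL2 at 18 hours (PMEL, 0.0215), 1 in the difference between lines at 6 hours and 2 at 18 hours, while the calls over all genes also grew, from 2 to 168 in SKMEL2 at 18 hours and from 44 to 359 in SKMEL30 at 18 hours. The cause was not tested. With the replicate number as a block, 2 members were called in SKMEL30 at 18 hours, SLC45A2 and TYRP1 (edgeR adjusted p = 0.0146 for TYRP1). The libraries share only a number, and the count of members called was 0 or 35 as before in every other comparison, while the calls over all genes went from 2 to 3 in SKMEL2 at 6 hours, from 2 to 7 at 18 hours, from 31 to 40 in SKMEL30 at 6 hours, from 44 to 37 at 18 hours and from 3 to 16 between these times, with equal counts in the other 4 comparisons. Of the 907 alternatives of 70 named values, 0 reversed, 14 lost and 10 gained a call. Of all 288 induction, time and difference values of the members, 125 changed sign in some alternative, and 8 had an adjusted p under 0.05 in any. In SKMEL2 the members' median absolute log2 change was 0.065 at 6 hours and 0.09 at 18 hours, near the median standard error of 0.09 at both times.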

Other observations

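Over the 2272 genes above a mean of 100 CPM in uninduced SKMEL2, PRAME was the lowest in uninduced SKMEL30, at 0.00826% of its SKMEL2 level of 440 CPM. It reached 0.482% in replicate 1 of SKMEL30 at 18 hours and at most 0.212% in the other SKMEL30 libraries. PRAME was chosen after its values were seen. KRT14, a keratin of basal epidermis, ran from 0 to 26.4 CPM over the SKMEL30 libraries with a median of 0.272 CPM, and its highest value was in the library that also held the most KRT5.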
